A study of Mus musculus with 19 samples.

Results

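Disease-associated microglia genes are genes that microglia, the resident macrophages of the brain, raise around amyloid plaques, dying neurons and damaged myelin. The 10 genes described here, Cst7, Clec7a, Itgax, Trem2, Tyrobp, Spp1, Gpnmb, Axl, Cd68 and Lgals3, were taken by symbol from a table of 55416 genes, and all 10 were among the 19234 genes with enough reads to test. Total RNA of tissue labelled R. Hippocampus from C57BL6 mice was sequenced after ribosomal RNA depletion in 19 libraries. EZH2nHom mice, labelled EZH2(-/-);Syn1Cre(+/-), lacked EZH2 where the neuronal Synapsin1 promoter drives Cre in mice with floxed alleles, and WT mice, labelled EZH2(+/+);Syn1Cre(+/-), carried the same Cre and intact EZH2. The driver is active in neurons and not in microglia. Tissue was taken on day 4 after status epilepticus, a prolonged seizure brought on by kainate (an agonist of glutamate receptors, injected at low dose more than once), or on day 4 after saline. There were 4 EZH2nHom kainate, 5 EZH2nHom saline, 5 WT kainate and 5 WT saline libraries. Nothing in the labels says outright that each library is a separate animal, so p-values measure the spread between these libraries, which may be technical. The study asked how loss of neuronal EZH2 alters the hippocampus after seizures.

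Microglia at rest express a homeostatic programme that includes purine and chemokine receptors. When they meet lipid debris or exposed phosphatidylserine, the receptor TREM2 signals through its adaptor TYROBP and the kinase SYK, and genes of phagocytosis, lysosomal digestion and lipid handling rise. In mouse models of Alzheimer's disease the adaptor rises early and without TREM2, while Cst7, Clec7a, Itgax, Spp1, Gpnmb and Axl belong to the later, TREM2-dependent stage. Recruited monocytes and border macrophages can express many of the same genes, among them Spp1, Gpnmb, Lgals3 and Cd68.

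The libraries held 24496685 to 43948317 reads. Ezh2 itself was not lower in the knockout, at 17.5 ± 2.40 CPM (SD, n = 4) in EZH2nHom kainate and 13.6 ± 1.42 CPM (n = 5) in EZH2nHom saline libraries, against 15.2 ± 4.53 and 11.3 ± 1.17 CPM (n = 5 each) in WT kainate and WT saline libraries. These are whole-gene counts over all cells of the tissue, so they do not check a deletion confined to neurons. CPM are read counts scaled to a common library total with TMM factors. One library stood apart: EZH2nHom kainate replicate 2 lay at -115.9 on the second principal component of log2 CPM, which held 13.8% of the variance, and the other libraries lay between -21.1 and 29.6. Sample code prefixes in the labels, whose meaning is not given, are never shared between the genotypes, so genotype and prefix cannot be told apart. Nor is any prefix shared between EZH2nHom kainate and EZH2nHom saline libraries, so kainate and prefix cannot be told apart in EZH2nHom. The share of reads from structural RNAs was 0.115 to 0.676% in EZH2nHom and 0.0286 to 0.169% in WT libraries, and Y-linked reads were present in 3 of 4 EZH2nHom kainate, 5 of 5 EZH2nHom saline, 3 of 5 WT kainate and 3 of 5 WT saline libraries.

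The label was checked against lists of cell markers, since the tissue holds many cell types. Genes of microglia and macrophages in general, such as C1qa, C1qb, C1qc and Ctss, were read in all groups, and homeostatic microglia genes such as Csf1r, Cx3cr1 and Olfml3 were read beside them. All 14 general microglia and macrophage genes rose after kainate in both genotypes, with a median log2 change of 2.71 in EZH2nHom and 2.20 in WT. Of 15 homeostatic microglia genes, 11 rose in EZH2nHom and 12 in WT, with medians of 1.11 and 1.01, and 0 fell. More cells of a type and more RNA per cell cannot be told apart in bulk tissue.

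In the GENCODE M21 annotation of GRCm38 the genes lie on chromosomes 2 (Cst7), 5 (Spp1), 6 (Clec7a, Gpnmb), 7 (Axl, Itgax, Tyrobp), 11 (Cd68), 14 (Lgals3) and 17 (Trem2). Every one is annotated as protein coding except Clec7a, which that release types as a polymorphic pseudogene. Spp1 shares 14.1% of its 32-base words with Gm42793, an model of type TEC (to be experimentally tested) on the same strand that overlaps 309 of its exon bases. Gm42793 had at most 6, 2, 30 and 0 reads in any EZH2nHom kainate, EZH2nHom saline, WT kainate and WT saline library. Itgax shares 10.5% of its words with its neighbour in sequence, the integrin Itgad, so reads of Spp1 and Itgax are less certain than those of the other genes. Itgad had at most 32, 13, 11 and 14 reads in any library of the same 4 groups. The remaining genes share at most 0.708% of their words with other genes.

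Promoters are shown because the genes moved together. Each runs from 250 bases before to 50 bases after the start site in RefSeq, build GRCm38.p6, and 9 of the 10 genes had an entry. On both strands they were searched for TGANTCA, the site of the AP-1 factors such as Jun and Fos, for GAGGAA, the core bound by the myeloid factor PU.1, and for CACGTG and TCACATG, sites of the lysosomal factors of the MITF and TFE family. These 9 genes had 11 promoter entries. TGANTCA was found in 5 of 9 genes (Cst7, Cd68, Gpnmb, Itgax and Trem2), or 5 of the 11 promoters, and in 7.81% of all 32851 promoters. GAGGAA was found in 5 of 9 genes (Axl, Cd68, Clec7a, Spp1 and Trem2), or 6 of the 11 promoters, and in 28.3% of all promoters. CACGTG and TCACATG were found in 0 of 9 genes, or 0 of the 11 promoters, and in 7.15% and 3.99% of all promoters. No member's match overlapped a match of another motif. A match describes letters in this window, not a bound site. The 5 promoters with TGANTCA follow, 5′ to 3′ on the gene's strand, with matches to TGANTCA and GAGGAA (or its reverse complement) in capitals.
Cst7 (chr2:150570165-150570464, + strand): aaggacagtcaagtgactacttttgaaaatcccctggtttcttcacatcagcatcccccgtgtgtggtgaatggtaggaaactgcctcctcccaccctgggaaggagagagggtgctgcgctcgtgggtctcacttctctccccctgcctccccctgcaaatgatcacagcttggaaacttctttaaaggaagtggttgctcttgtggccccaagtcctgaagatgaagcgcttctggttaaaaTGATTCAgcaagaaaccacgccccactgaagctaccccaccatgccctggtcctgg
Cd68 (chr11:69666121-69666420, - strand): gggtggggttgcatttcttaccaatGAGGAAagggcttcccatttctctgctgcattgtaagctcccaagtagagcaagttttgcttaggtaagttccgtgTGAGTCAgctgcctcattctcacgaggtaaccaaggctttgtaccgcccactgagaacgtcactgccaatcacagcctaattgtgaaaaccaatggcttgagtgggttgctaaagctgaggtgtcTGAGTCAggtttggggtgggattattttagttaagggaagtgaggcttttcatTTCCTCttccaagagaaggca
Gpnmb (chr6:49036268-49036567, + strand): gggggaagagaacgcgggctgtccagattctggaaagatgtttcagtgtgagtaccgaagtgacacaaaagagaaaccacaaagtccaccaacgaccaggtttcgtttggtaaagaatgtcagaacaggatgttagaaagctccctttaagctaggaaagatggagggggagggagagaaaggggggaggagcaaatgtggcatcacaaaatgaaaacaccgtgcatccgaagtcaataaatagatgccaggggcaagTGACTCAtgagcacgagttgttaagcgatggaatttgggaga
Itgax (chr7:128129300-128129599, + strand): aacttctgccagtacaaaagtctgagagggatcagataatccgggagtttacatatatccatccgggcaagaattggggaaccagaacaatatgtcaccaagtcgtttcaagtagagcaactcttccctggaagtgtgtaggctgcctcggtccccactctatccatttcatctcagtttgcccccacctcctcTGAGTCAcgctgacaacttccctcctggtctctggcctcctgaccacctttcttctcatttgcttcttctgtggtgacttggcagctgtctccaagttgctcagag
Trem2 (chr17:48346151-48346450, + strand): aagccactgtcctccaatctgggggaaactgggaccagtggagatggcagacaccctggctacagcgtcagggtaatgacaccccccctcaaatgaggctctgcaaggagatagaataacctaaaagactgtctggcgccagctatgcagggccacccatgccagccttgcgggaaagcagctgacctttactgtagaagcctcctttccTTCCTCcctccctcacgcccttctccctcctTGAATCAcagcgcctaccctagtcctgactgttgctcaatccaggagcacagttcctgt

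TGANTCA lies 6 bases before the start site of Cst7, 9 before that of Trem2 and 56 before that of Itgax, 149 and 24 before that of Cd68, and 8 bases after that of Gpnmb.

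All 10 genes were higher after kainate than after saline in both genotypes. The rises ran from a log2 fold change of 1.38 (Axl) to 7.23 (Cst7) in EZH2nHom and from 0.77 (Axl) to 6.99 (Cst7) in WT, with medians of 3.51 and 3.03, against medians of -0.02 over all genes in both genotypes. Of all genes tested, 14.3% were called higher in EZH2nHom and 9.47% in WT, at an adjusted p under 0.05 from edgeR's quasi-likelihood test. The kainate and saline libraries did not overlap for 10 of 10 genes in EZH2nHom, where 9.93% of all genes were higher without overlap, and for 9 of 10 in WT, where 9.79% were. Lgals3 was the exception in WT. In a fit with a term for structural RNA content, 7 genes were called in WT, beside 2.92% of all genes, and Spp1, Axl and Lgals3 were not. Among the 6 WT libraries whose code prefix occurs in both treatments (2 saline, 4 kainate), with the prefix as a block, 0 of the 10 genes and 0 of all genes were called. The log2 changes of the 10 genes were 0.68 to 6.34, and 7 of them had an unadjusted p under 0.05, beside 2167 of 18706 genes. No prefix occurs in both treatments of EZH2nHom, so this fit could not be made there.

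**Figure D1:**
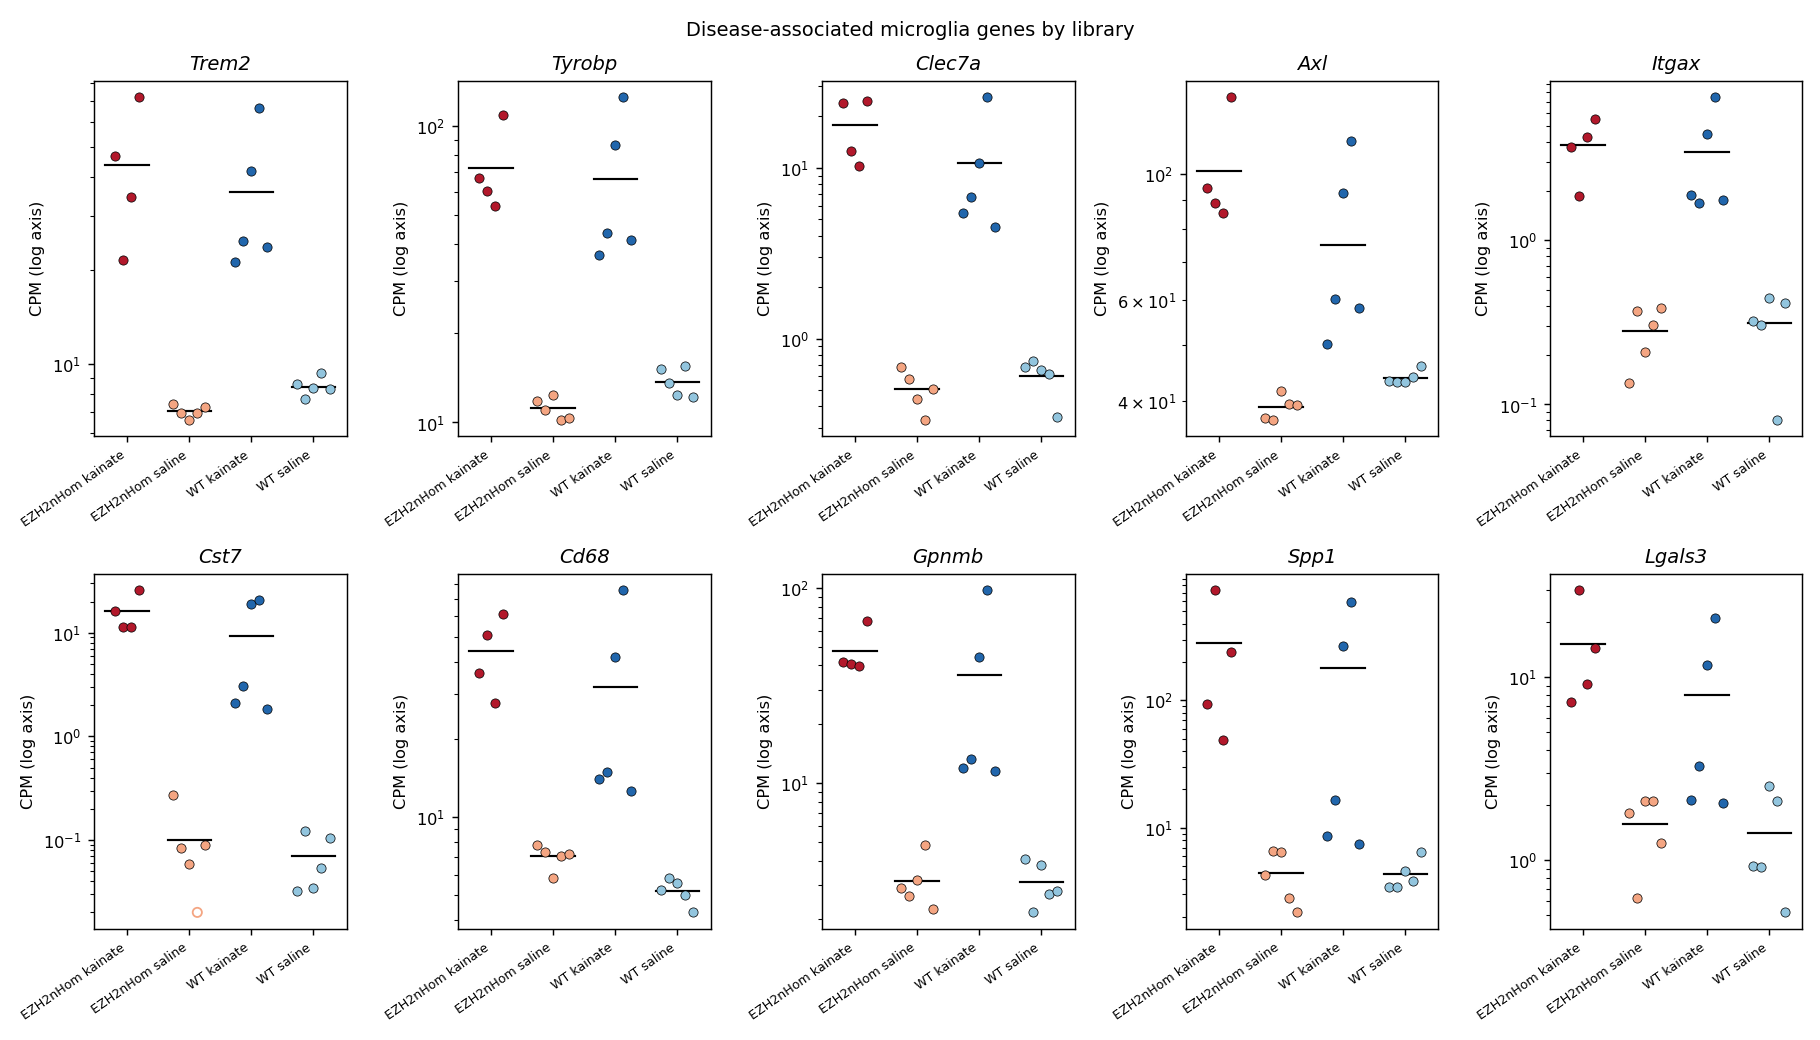
CPM of the 10 genes (log axis) in each library, with groups from left to right EZH2nHom kainate (n = 4), EZH2nHom saline (n = 5), WT kainate (n = 5) and WT saline (n = 5); replicates run from left to right within a group, black bars are group means, and the open circle marks the Cst7 library with 0 reads, placed at the foot of its panel. Kainate libraries lie above the saline libraries of their genotype in every panel except that of Lgals3 in WT.

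Among the receptors, Trem2, which senses lipids and lipoproteins, followed its group closely after saline. Trem2 was at 46.6, 21.7, 34.3 and 72.04 CPM in EZH2nHom kainate replicates 1 to 4, against 7.45, 6.95, 6.64, 6.997 and 7.31 CPM in EZH2nHom saline replicates 1 to 5. In WT, Trem2 was at 21.3, 24.9, 41.6, 66.6 and 23.8 CPM in kainate replicates 1 to 5, against 8.67, 7.71, 8.36, 9.35 and 8.30 CPM in saline replicates 1 to 5. Every kainate library exceeded every saline library, and WT kainate replicates 3 and 4 stood above the other WT kainate libraries. Trem2 rose by a log2 fold change of 2.63 ± 0.32 in EZH2nHom (adjusted p = 1.96e-05) and 2.07 ± 0.30 in WT (adjusted p = 0.000247). Tyrobp, the adaptor that carries the TREM2 signal, ranged from 53.8 to 109 CPM in EZH2nHom kainate and from 10.2 to 12.4 CPM in EZH2nHom saline libraries, and from 36.6 to 125 CPM in WT kainate and from 12.2 to 15.5 CPM in WT saline libraries. Tyrobp rose by a log2 fold change of 2.69 ± 0.30 in EZH2nHom (adjusted p = 1.14e-05) and 2.27 ± 0.29 in WT (adjusted p = 0.000103).

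Clec7a encodes dectin-1, a pattern receptor for beta-glucans that also signals through SYK. Clec7a stood at 24.1, 12.5, 10.2 and 24.5 CPM in EZH2nHom kainate replicates 1 to 4, against 0.677, 0.580, 0.444, 0.335 and 0.505 CPM in EZH2nHom saline replicates 1 to 5. In WT, Clec7a stood at 5.41, 6.78, 10.7, 25.9 and 4.53 CPM in kainate replicates 1 to 5, against 0.677, 0.734, 0.654, 0.620 and 0.346 CPM in saline replicates 1 to 5. The gene was read at under 1 CPM in every saline library and at 4.53 CPM or more in every kainate library. Clec7a rose by a log2 fold change of 5.12 ± 0.48 in EZH2nHom (adjusted p = 2.77e-06) and 4.12 ± 0.46 in WT (adjusted p = 2.91e-05). Itgax encodes CD11c, the integrin alpha subunit of complement receptor 4. It ranged from 1.87 to 5.45 CPM in EZH2nHom kainate and from 0.135 to 0.386 CPM in EZH2nHom saline libraries, and from 1.69 to 7.45 CPM in WT kainate and from 0.0808 to 0.447 CPM in WT saline libraries. Itgax rose by a log2 fold change of 3.77 ± 0.51 in EZH2nHom (adjusted p = 4.01e-05) and 3.46 ± 0.49 in WT (adjusted p = 0.000192).

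Axl, a TAM receptor tyrosine kinase that binds phosphatidylserine on dying cells through its ligand GAS6, changed least. Axl measured 94.7, 88.8, 85.5 and 136 CPM in EZH2nHom kainate replicates 1 to 4, against 37.2, 37.05, 41.7, 39.5 and 39.3 CPM in EZH2nHom saline replicates 1 to 5. In WT, Axl measured 50.4, 60.3, 92.6, 114 and 58.2 CPM in kainate replicates 1 to 5, against 43.3, 43.2, 43.1, 43.9 and 46.03 CPM in saline replicates 1 to 5. Axl was already read at 37.0 CPM or more in every saline library, and WT kainate replicate 1 exceeded the highest WT saline library by little. Axl rose by a log2 fold change of 1.38 ± 0.18 in EZH2nHom (adjusted p = 4.01e-05) and 0.77 ± 0.18 in WT (adjusted p = 0.00629).

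Among the lysosomal genes, Cst7 encodes cystatin F, an inhibitor of cysteine cathepsins. Cst7 reached 16.2, 11.4, 11.4 and 25.9 CPM in EZH2nHom kainate replicates 1 to 4, against 0.271, 0.0828, 0.0593, 0 and 0.0892 CPM in EZH2nHom saline replicates 1 to 5. In WT, Cst7 reached 2.11, 3.07, 18.9, 20.7 and 1.84 CPM in kainate replicates 1 to 5, against 0.0322, 0.122, 0.0344, 0.0539 and 0.104 CPM in saline replicates 1 to 5. Only 17 reads fell on Cst7 over the 5 EZH2nHom saline libraries and 11 over the 5 WT saline libraries. EZH2nHom saline replicate 4 had 0 reads, a count that still allows an expected value of up to about 3 reads. The fitted rise therefore rests on few saline reads. Cst7 rose by a log2 fold change of 7.23 ± 0.85 in EZH2nHom (adjusted p = 1.87e-05) and 6.99 ± 0.88 in WT (adjusted p = 0.000107).

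Cd68 encodes a glycoprotein of late endosomes and lysosomes that is used as a marker of phagocytic macrophages. Cd68 amounted to 36.04, 50.8, 27.8 and 61.1 CPM in EZH2nHom kainate replicates 1 to 4, against 7.83, 7.37, 5.84, 7.06 and 7.19 CPM in EZH2nHom saline replicates 1 to 5. In WT, Cd68 amounted to 14.1, 15, 41.6, 75.8 and 12.7 CPM in kainate replicates 1 to 5, against 5.25, 5.81, 5.57, 5.01 and 4.29 CPM in saline replicates 1 to 5. In WT the replicates 3 and 4 lay far above replicates 1, 2 and 5, while the 4 EZH2nHom kainate libraries were spread over a 2.20-fold range. Cd68 rose by a log2 fold change of 2.64 ± 0.42 in EZH2nHom (adjusted p = 0.000209) and 2.61 ± 0.41 in WT (adjusted p = 0.000429). Gpnmb encodes a transmembrane glycoprotein that macrophages raise under lysosomal load. Gpnmb came to 41.7, 40.8, 39.9 and 67.5 CPM in EZH2nHom kainate replicates 1 to 4, against 2.90, 2.65, 3.20, 4.81 and 2.26 CPM in EZH2nHom saline replicates 1 to 5. In WT, Gpnmb came to 11.9, 13.3, 43.9, 97.6 and 11.5 CPM in kainate replicates 1 to 5, against 4.09, 2.17, 3.79, 2.69 and 2.80 CPM in saline replicates 1 to 5. Replicates 1 to 3 of EZH2nHom kainate lay close together and replicate 4 stood above them. Gpnmb rose by a log2 fold change of 3.90 ± 0.55 in EZH2nHom (adjusted p = 7.86e-05) and 3.52 ± 0.53 in WT (adjusted p = 0.00035).

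Among the secreted proteins, Spp1 encodes osteopontin, a phosphoprotein that binds integrins and CD44. Spp1 had 94.1, 738, 49.3 and 240 CPM in EZH2nHom kainate replicates 1 to 4, against 4.25, 6.58, 6.43, 2.83 and 2.17 CPM in EZH2nHom saline replicates 1 to 5. In WT, Spp1 had 8.57, 16.6, 266, 598 and 7.46 CPM in kainate replicates 1 to 5, against 3.45, 3.46, 4.61, 3.80 and 6.47 CPM in saline replicates 1 to 5. The WT kainate libraries differed 80.1-fold between the highest and the lowest, and the EZH2nHom kainate libraries 14.97-fold, the widest ranges of the 10 genes in both groups. Spp1 rose by a log2 fold change of 5.99 ± 1.26 in EZH2nHom (adjusted p = 0.00254) and 5.37 ± 1.21 in WT (adjusted p = 0.00827). Leaving out 1 library at a time, it ran from 4.85 (without EZH2nHom kainate replicate 2) to 6.33 in EZH2nHom and from 4.10 (without WT kainate replicate 4) to 5.68 in WT. Lgals3 encodes galectin-3, a lectin that binds beta-galactosides and is recruited to damaged lysosomes. Lgals3 showed 7.28, 30.1, 9.21 and 14.4 CPM in EZH2nHom kainate replicates 1 to 4, against 1.81, 0.621, 2.10, 2.10 and 1.25 CPM in EZH2nHom saline replicates 1 to 5. In WT, Lgals3 showed 2.14, 3.29, 11.7, 21.1 and 2.05 CPM in kainate replicates 1 to 5, against 0.935, 0.918, 2.55, 2.10 and 0.519 CPM in saline replicates 1 to 5. WT kainate replicates 1 and 5 lay inside the range of the WT saline libraries. Lgals3 rose by a log2 fold change of 3.25 ± 0.67 in EZH2nHom (adjusted p = 0.00173) and 2.50 ± 0.65 in WT (adjusted p = 0.0163). Without WT kainate replicate 4, Lgals3 in WT had a log2 fold change of 1.75 and was not called (adjusted p = 0.0792, with a range of 0.00215 to 0.544 over all alternatives), and the other 9 genes still were, beside 7.12% of all genes.

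**Figure D2:**
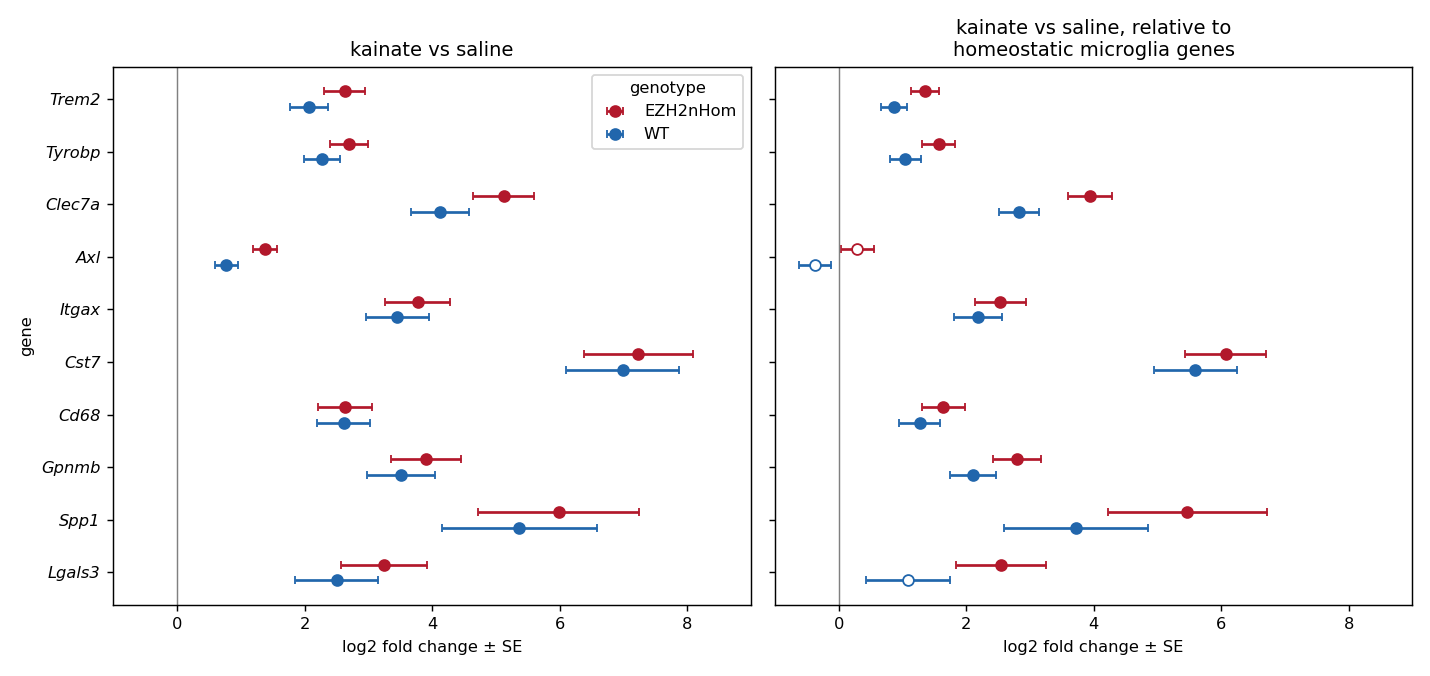
Log2 fold change of kainate over saline (points, with bars of 1 SE) for each gene in EZH2nHom (red, n = 4 against 5, drawn above) and WT (blue, n = 5 against 5), from the fit to all 19 libraries on the left and relative to 15 homeostatic microglia genes on the right; filled points have an adjusted p under 0.05. Every point on the left is filled, and on the right Axl in both genotypes and Lgals3 in WT are open.

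Levels were set side by side per kilobase of exon, with GRCm38 lengths. In EZH2nHom kainate libraries Spp1 led at 170 ± 192 CPM per kilobase (SD, n = 4), ahead of Tyrobp at 108 ± 37.2, Cd68 at 34.95 ± 11.9, Axl at 20.1 ± 4.70 and Cst7 at 16.5 ± 6.94. Trem2 at 8.83 ± 4.34, Lgals3 at 8.20 ± 5.56, Gpnmb at 7.29 ± 2.05 and Clec7a at 6.75 ± 2.86 CPM per kilobase could not be ordered beyond their spread, and Itgax was lowest at 0.797 ± 0.310. Nor could Spp1 and any other gene, Cd68 and Axl, Axl and Cst7, or Cst7 and any of Trem2, Lgals3 or Clec7a be ordered beyond their spread. In EZH2nHom saline libraries Tyrobp led at 16.8 ± 1.42 CPM per kilobase (SD, n = 5), ahead of Axl at 7.74 ± 0.375 and Cd68 at 5.61 ± 0.590, while Spp1 was at 2.70 ± 1.23 and Cst7 at 0.102 ± 0.103. The order of the means in WT kainate libraries was the same down to Trem2, with Spp1 at 109 ± 157, Tyrobp at 99.8 ± 57.5 and Cd68 at 25.3 ± 21.8 CPM per kilobase (SD, n = 5). The SD of Spp1 exceeded its mean in both kainate groups. Spp1 exceeded Tyrobp in EZH2nHom kainate replicate 2 and in WT kainate replicates 3 and 4, and in WT kainate replicates 1, 2 and 5 it lay between 4.52 and 10.1 CPM per kilobase, below Tyrobp, Cd68 and Axl in each. WT saline libraries had Tyrobp at 20.6 ± 2.26, Axl at 8.72 ± 0.245, Cd68 at 4.13 ± 0.468 and Spp1 at 2.64 ± 0.771 CPM per kilobase. The move of Spp1 and Cst7 up the order after kainate is a description of these means.

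The spread among kainate libraries was shared by the genes. In WT, replicate 4 was highest and replicate 3 second for 10 of 10 genes, and replicates 1, 2 and 5 held the lower places. WT kainate replicates 2, 3 and 4 carry the same code prefix. In EZH2nHom, replicate 4 was highest for 8 of 10 genes, and replicate 2 was highest for Spp1 and Lgals3 and lowest for Trem2 and Itgax. Over the 9 kainate libraries, the correlation of each gene with the mean of the other 9 genes ran from 0.774 (Trem2) to 0.991 (Cd68), a description over libraries that share 2 genotypes and differ in depth.

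**Figure D3:**
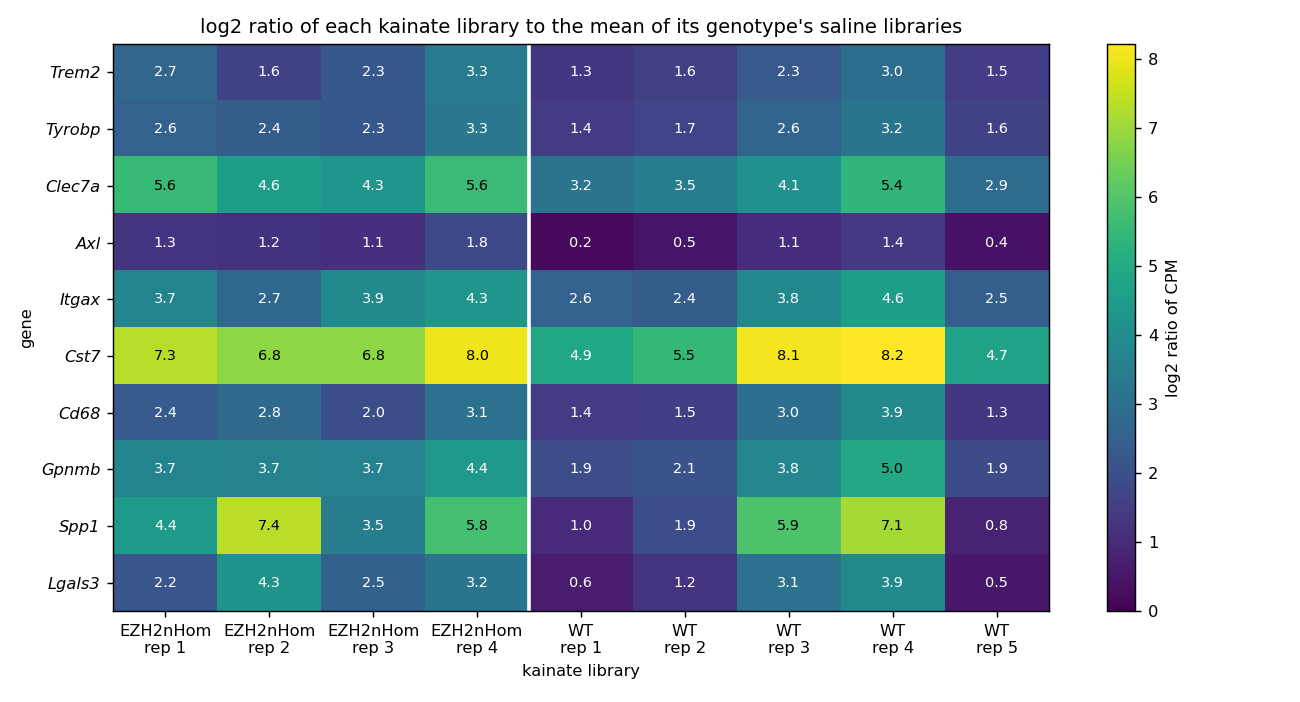
Log2 ratio of CPM in each kainate library to the mean of its genotype's saline libraries, with genes down the page and libraries across it, EZH2nHom replicates 1 to 4 left of the white line and WT replicates 1 to 5 right of it. WT replicates 3 and 4 carry higher ratios than WT replicates 1, 2 and 5 for every gene, and EZH2nHom replicate 2 combines the highest ratios of Spp1 and Lgals3 among the EZH2nHom libraries with the lowest of Trem2 and Itgax.

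Markers of recruited monocytes followed the same libraries in WT. Ccr2, the chemokine receptor of inflammatory monocytes, was at 6.53 and 13.02 CPM in WT kainate replicates 3 and 4, against 0.506 to 1.16 CPM in replicates 1, 2 and 5 and 0.450 to 0.964 CPM in WT saline libraries. The summed level of 7 monocyte genes was 350 and 497 CPM in WT kainate replicates 3 and 4, and its range was 143 to 267 CPM in EZH2nHom kainate, 93.9 to 132 CPM in EZH2nHom saline, 136 to 497 CPM in WT kainate and 116 to 138 CPM in WT saline libraries. After kainate 6 of the 7 monocyte genes rose and 1 fell (Itga4) in EZH2nHom, and 5 of 7 rose and 0 fell in WT. WT kainate replicates 3 and 4 were also the 2 shallowest libraries, with 25533122 and 24496685 reads. The part of monocytes and of depth in these values was not tested.

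EZH2nHom kainate replicate 2 differed in kind. It had the highest Spp1 of all 19 libraries and the highest Lgals3, yet Ccr2 had 0 reads there and Ly6c2 was at 0.110 and Plac8 at 0.220 CPM, against 0.924 to 8.82 CPM of Ly6c2 in the other 3 EZH2nHom kainate libraries. The 7 monocyte genes together summed to at least 142.8 CPM in every EZH2nHom kainate library, against 93.9 to 132 CPM in EZH2nHom saline libraries. That sum was already 115.8 to 138.3 CPM in WT saline libraries, so it does not by itself show monocytes. Neutrophil genes summed to 11.8 CPM in EZH2nHom kainate replicate 2, led by S100a9 at 5.28 and S100a8 at 4.62 CPM, and to at most 4.08 CPM in any other library. Its ratio of Spp1 to Trem2 was 34.0, against 0.314 to 8.97 in the other kainate libraries, and its ratio of Trem2 to Tyrobp was 0.360, against 0.483 to 0.699. Spp1 made up 69.9% of the summed CPM of the 10 genes in it. The mean log2 CPM of the 15 homeostatic genes was 4.74 there and 5.32 to 6.58 in the other kainate libraries, against 4.47 to 4.63 in EZH2nHom saline and 4.71 to 4.84 in WT saline libraries. Without this library all 10 genes were still called higher in EZH2nHom, beside 31.2% of all genes called in either direction, and 26.1% with it.

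**Figure D4:**
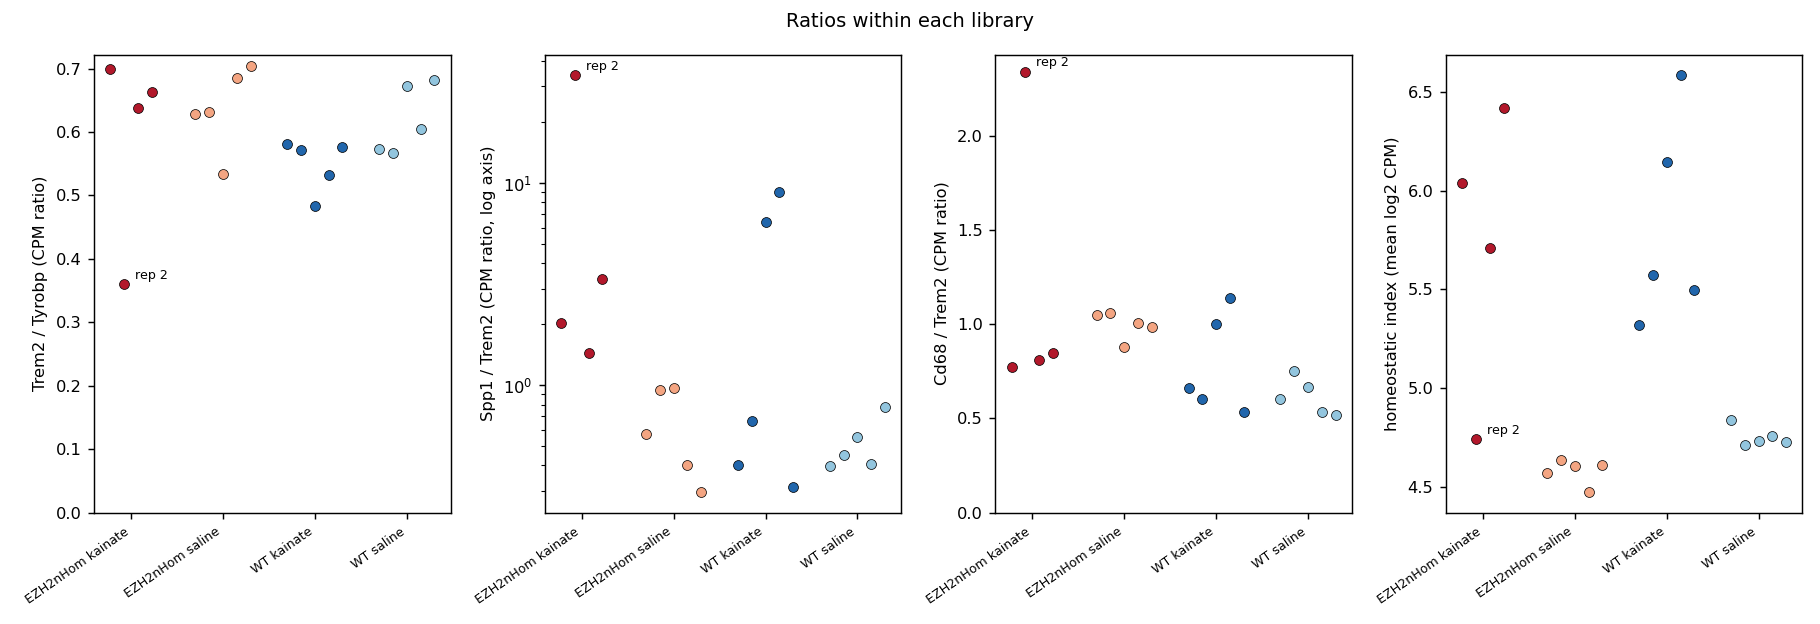
CPM ratios of Trem2 to Tyrobp, Spp1 to Trem2 (log axis) and Cd68 to Trem2, and the mean log2 CPM of 15 homeostatic microglia genes, in each library, with groups from left to right EZH2nHom kainate (n = 4), EZH2nHom saline, WT kainate and WT saline (n = 5 each). EZH2nHom kainate replicate 2, marked rep 2, lies apart in all 3 ratios. It sits with the saline libraries in the mean log2 CPM of the homeostatic genes, though not in their summed CPM.

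Markers of border macrophages, neutrophils and lymphocytes were also read. Mrc1, a defining gene of border macrophages, averaged 9.31 ± 0.528 CPM (SD, n = 4) in EZH2nHom kainate and 8.92 ± 2.54 CPM (n = 5) in EZH2nHom saline libraries, and 8.67 ± 0.943 and 8.16 ± 1.16 CPM (n = 5 each) in WT kainate and WT saline libraries. Of 7 border macrophage genes 1 rose in each genotype, Ms4a7, by 2.32 ± 0.69 in EZH2nHom and 2.53 ± 0.68 in WT. Their summed level ranged from 15.7 to 24.4 CPM in EZH2nHom kainate and 10.7 to 20.7 CPM in EZH2nHom saline libraries, and from 16.5 to 41.8 CPM in WT kainate and 13.5 to 17.9 CPM in WT saline libraries. The 9 lymphocyte genes summed to 1.41 to 2.28 CPM in EZH2nHom kainate, 0.433 to 0.913 CPM in EZH2nHom saline, 1.15 to 2.32 CPM in WT kainate and 0.428 to 0.673 CPM in WT saline libraries. Neutrophil genes summed to 0.947 to 11.8, 0.271 to 3.92, 1.02 to 4.08 and 1.11 to 3.27 CPM in the same 4 groups. The 5 red blood cell genes were called higher after kainate in 0 of 5 cases in EZH2nHom (median log2 change -0.10) and in 5 of 5 in WT (median 1.45), and 5 of 5 were lower in EZH2nHom than in WT after kainate (median -2.02). The part of these cells and of blood in the values of the 10 genes was not tested.

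To ask whether the genes rose by more than the homeostatic microglia genes, libraries were rescaled to the mean log2 CPM of the 15 homeostatic genes. This moves the median log2 change of all genes to -1.03 in EZH2nHom and -1.01 in WT, and values below are relative to the homeostatic genes. On this scale 9 of 10 genes were higher after kainate in EZH2nHom, where 4.19% of all genes were called higher, and 8 of 10 in WT, where 2.69% were. All 14 general microglia and macrophage genes were also called higher in both genotypes, with medians of 1.65 in EZH2nHom and 0.963 in WT. Such a call is therefore not particular to the 10 genes. Cst7 was highest, at 6.07 ± 0.64 in EZH2nHom and 5.59 ± 0.65 in WT, and Spp1 was at 5.47 ± 1.24 and 3.73 ± 1.13. Clec7a was at 3.94 ± 0.34 and 2.83 ± 0.32, Gpnmb at 2.79 ± 0.37 and 2.11 ± 0.36, and Itgax at 2.54 ± 0.39 and 2.18 ± 0.38 in EZH2nHom and WT. Without EZH2nHom kainate replicate 2, Spp1 in EZH2nHom was at 3.23, Lgals3 at 1.17 and Cd68 at 1.01, against 5.47, 2.54 and 1.64 with it. Without WT kainate replicate 4, Spp1 in WT was at 2.80, Lgals3 at 0.68 and Cd68 at 0.996. The adaptor and receptor pair moved less, with Tyrobp at 1.57 ± 0.26 and 1.05 ± 0.25 and Trem2 at 1.35 ± 0.22 and 0.87 ± 0.21. Axl was not called, at 0.29 ± 0.26 in EZH2nHom (adjusted p = 0.303) and -0.37 ± 0.25 in WT (adjusted p = 0.162), and Lgals3 in WT was at 1.09 ± 0.66 (adjusted p = 0.134).

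The choice of the genes that stand for microglia decided some of these calls. Scaled instead to the 14 general microglia and macrophage genes, 5 of 10 genes were called higher and 1, Axl, lower in each genotype, beside 0.967% of all genes called higher in EZH2nHom and 0.743% in WT. On that scale 94.8% of all genes were called lower in EZH2nHom and 93.5% in WT, so the lower call of Axl is near the background. Trem2 was at -0.16 in EZH2nHom and -0.053 in WT, Tyrobp at -0.053 and 0.11 and Cd68 at -0.084 and 0.27, none of them called, while Axl was at -1.34 in EZH2nHom (adjusted p = 0.000153, range over alternatives 0.000153 to 0.729) and -1.26 in WT (adjusted p = 0.000138, range 0.000138 to 0.298). Lgals3 was not called either, at 0.63 in EZH2nHom and 0.005 in WT. The 5 genes called higher were Cst7, Clec7a, Itgax, Spp1 and Gpnmb.

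Of the 10 genes, 0 were called between EZH2nHom and WT saline libraries by edgeR or DESeq2, beside 13.5% of all genes by edgeR. In edgeR, 0 of the 10 had an unadjusted p under 0.05, beside 5266 of all 19234 genes. The log2 differences ran from -0.30 ± 0.28 (Tyrobp) to 0.57 ± 1.31 (Cst7), with a median of -0.07, against 0.02 over all genes. Cd68 was higher in every EZH2nHom than in every WT saline library, as were 12.9% of all genes, and Axl and Trem2 were lower in every EZH2nHom than in every WT saline library, as were 8.42% of all genes. The log2 difference of Cd68 was 0.44 ± 0.40 (adjusted p = 0.538), that of Axl -0.17 ± 0.18 (adjusted p = 0.588) and that of Trem2 -0.26 ± 0.30 (adjusted p = 0.636). In a fit to the saline libraries alone, whose spread was smaller, 4 of the 9 genes tested were called, beside 31.5% of all genes. These were Cd68, higher in EZH2nHom at 0.42 (adjusted p = 0.0107, range over alternatives 0.0107 to 0.977), and Axl, Trem2 and Tyrobp, lower at -0.20, -0.29 and -0.32 (adjusted p = 0.0113, 0.0160 and 0.0142, with highest values over alternatives of 0.697, 0.725 and 0.643).

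After kainate all 10 genes had higher fitted means in EZH2nHom than in WT, but 0 were called by edgeR or DESeq2, beside 7.61% of all genes by edgeR. The log2 differences ran from 0.12 ± 0.29 (Tyrobp) to 0.93 ± 0.62 (Lgals3), with a median of 0.45, against 0.004 over all genes. Axl, at 0.43 ± 0.18, was the 1 gene of the 10 with an unadjusted p under 0.05 (adjusted p = 0.155), beside 4599 of all 19234 genes. The direction turned for Itgax, Trem2 and Tyrobp with a term for structural RNA content (-0.29, -0.015 and -0.053) and without EZH2nHom kainate replicate 4 (-0.054, -0.056 and -0.14). It also turned for Spp1 without EZH2nHom kainate replicate 2 (-0.49), and it fell just under 0 for Itgax without WT kainate replicate 2 or 5 and for Tyrobp without WT kainate replicate 1 or 5. Clec7a differed by 0.74 ± 0.40 and Cst7 by 0.81 ± 0.59. EZH2nHom and WT kainate libraries overlapped for all 10 genes, while 4.13% of all genes were higher and 3.13% lower without overlap. The 95% intervals were wide, at -1.39 to 2.68 for Spp1, -0.55 to 1.39 for Gpnmb, -0.03 to 1.52 for Clec7a and -0.29 to 0.88 for Trem2, so differences of more than a log2 unit in either direction could not be told from 0 for Spp1.

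WT kainate replicate 4, the highest WT library for every gene, changed this count. Without it 4 genes were called higher in EZH2nHom, beside 11.4% of all genes. They were Clec7a at 1.38 (adjusted p = 0.00838, range over alternatives 0.00838 to 0.529), Axl at 0.63 (adjusted p = 0.0153, range 0.0153 to 0.458), Cd68 at 1.08 (adjusted p = 0.0302, range 0.0302 to 0.751) and Gpnmb at 1.24 (adjusted p = 0.0363, range 0.0363 to 0.916). Without EZH2nHom kainate replicate 2, 0 genes were called, beside 6.74% of all genes, and the log2 difference of Spp1 was -0.49.

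Relative to the homeostatic genes, the genotype difference after kainate was positive for all 10 genes, with a median of 0.95, against 0.15 over all genes, and 0 were called, beside 0.307% of all genes, a count of 59 that ran from 24 (without WT kainate replicate 2) to 616 (without EZH2nHom kainate replicate 4) when 1 library was left out. The direction turned for Itgax (-0.19), Trem2 (-0.24), Tyrobp (-0.33) and Axl (-0.12) on the scale of the general microglia genes, and for Spp1 (-0.31) without EZH2nHom kainate replicate 2. An unadjusted p under 0.05 was reached by 6 of the 10 genes on the homeostatic scale with all libraries, beside 2293 of all 19234 genes. Clec7a differed by 1.03 ± 0.30 (adjusted p = 0.127), and it was the 1 gene called when WT kainate replicate 4 was left out, at 1.31 (adjusted p = 0.0248, range over alternatives 0.0248 to 0.370), or EZH2nHom kainate replicate 3 or 4, at 1.22 and 1.09 (adjusted p = 0.0481 and 0.0494). After saline 0 genes were called on this scale, beside 0.385% of all genes.

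The kainate responses of the genotypes were compared as a difference of differences. Of all genes, 0 were called by edgeR (0% of 19234, with 1685 at an unadjusted p under 0.05) and 15 by the DESeq2 Wald test, and of the 10 genes 0 were called by either. The differences, EZH2nHom response minus WT response, ran from 0.03 ± 0.58 (Cd68) to 1.003 ± 0.64 (Clec7a), with a median of 0.49, against -0.02 over all genes. Axl, at 0.61 ± 0.25 (adjusted p = 0.529), was the 1 gene with an unadjusted p under 0.05. These comparisons share libraries, so the positive signs of the 10 genes are not separate observations.

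**Figure D5:**
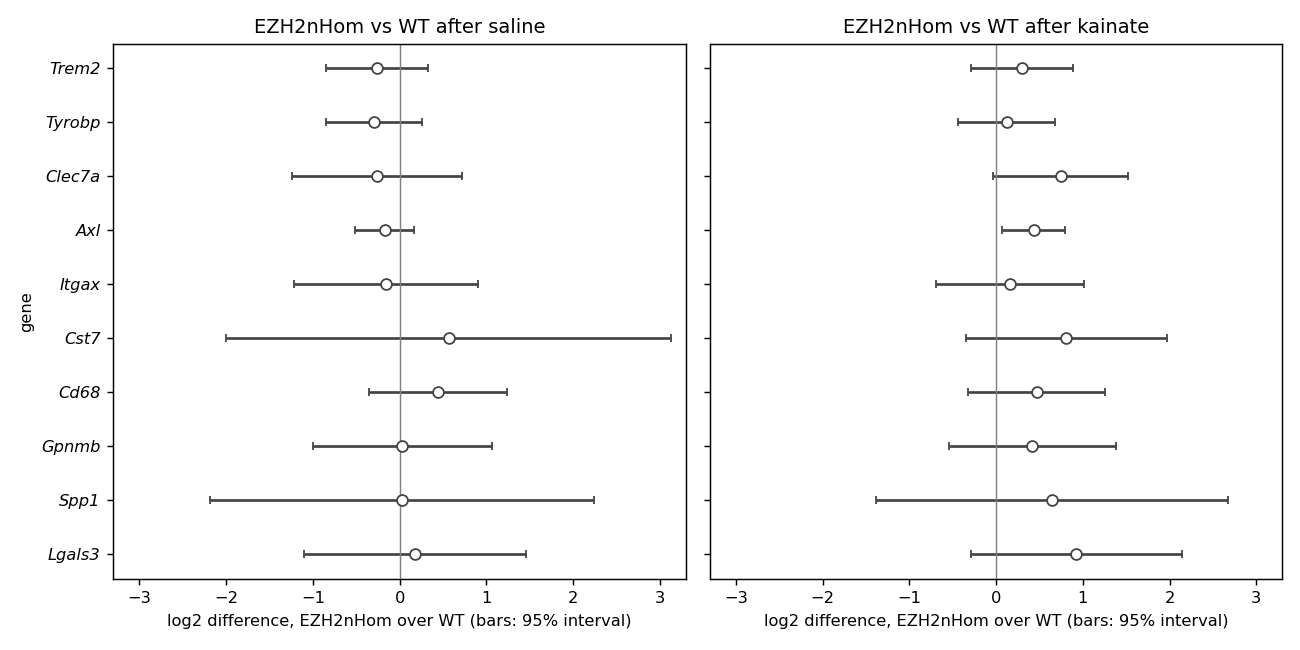
Log2 difference of EZH2nHom over WT for each gene after saline (left, n = 5 against 5) and after kainate (right, n = 4 against 5), with bars that span the 95% interval; open points are not called. All points on the right lie above 0, and every bar there except that of Axl crosses it.

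The partners that these proteins bind were less uniform. Of 16 binding partners, 11 rose and 1 fell after kainate in EZH2nHom, and 11 rose and 0 fell in WT, with a median log2 change of 0.82 in both, beside the 26.1% and 12% of all genes called in either direction. Of the ligands of the TAM receptors, Pros1 rose by 2.41 ± 0.36 in EZH2nHom and 1.60 ± 0.34 in WT, while Gas6 was at -0.02 ± 0.18 and -0.03 ± 0.17. The other TAM receptors were not called, with Mertk at 0.35 ± 0.14 and 0.24 ± 0.13 and Tyro3 at -0.15 ± 0.14 and -0.01 ± 0.13. Cd44, a receptor of osteopontin, rose by 3.84 ± 0.51 and 2.93 ± 0.48, and Itgb2, the beta subunit that pairs with CD11c, by 3.12 ± 0.41 and 2.50 ± 0.39. The osteopontin-binding integrin subunits rose less, with Itgav at 1.06 ± 0.23 and 0.93 ± 0.22, Itgb5 at 1.65 ± 0.27 and 1.41 ± 0.26, Itgb3 at 0.88 ± 0.27 and 0.97 ± 0.25 and Itgb1 at 0.76 ± 0.17 and 0.65 ± 0.17. Lgals3bp, a glycoprotein bound by galectin-3, rose by 3.36 ± 0.39 and 2.78 ± 0.37.

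Of the ligands of CSF1R, the receptor on which microglia depend, Csf1 rose by 1.48 ± 0.25 in EZH2nHom and 0.95 ± 0.23 in WT, and Il34, made mainly by neurons, was at -0.41 ± 0.16 and -0.09 ± 0.15 and was not called. Of the proteases that shed TREM2 from the cell surface, Adam10 rose by 0.29 ± 0.10 and 0.41 ± 0.09 and Adam17 by 0.58 ± 0.20 and 0.72 ± 0.19. Sort1, the sorting receptor sortilin, fell in EZH2nHom (-0.42 ± 0.13, adjusted p = 0.0185) and was at -0.23 ± 0.12 in WT. Between the genotypes after kainate, Itgb1 was higher in EZH2nHom (0.59 ± 0.17, adjusted p = 0.0437) and Il34 lower (-0.61 ± 0.16, adjusted p = 0.0276), and 0 partners were called after saline. The remaining partners of the 16 were not called after kainate, beside 7.61% of all genes called after kainate and 13.5% after saline. In a fit to the kainate libraries alone, 4 of all genes were called higher in EZH2nHom and 0 lower, so the lower call of Il34 was not kept. Il34 averaged 12.9 ± 1.09 CPM (SD, n = 4) in EZH2nHom kainate libraries, against 19.6 ± 4.94 CPM (n = 5) in WT kainate libraries.

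Downstream of TREM2, TYROBP and dectin-1, 16 of 20 signalling genes rose in EZH2nHom and 14 of 20 in WT, and 0 fell, with medians of 1.99 and 1.72, beside 14.3% and 9.47% of all genes called higher in EZH2nHom and WT. Inpp5d, the lipid phosphatase SHIP1 that restrains TREM2 signalling, rose by 2.21 ± 0.28 and 1.77 ± 0.27, and the kinase Fyn by 0.36 ± 0.12 and 0.74 ± 0.11. Pik3r1 and Grb2, which many cell types express, were at 0.04 ± 0.10 and 0.23 ± 0.09 in EZH2nHom and 0.15 ± 0.09 and 0.14 ± 0.08 in WT and were not called. Between the genotypes Malt1 was higher in EZH2nHom after kainate (0.56, adjusted p = 0.0360) and Nfatc1 lower after saline (-0.67, adjusted p = 0.0439), both singled out after their values were seen. No other gene of the 20 was called between the genotypes, beside 7.61% of all genes after kainate and 13.5% after saline. The call of Malt1 comes from the fit to all 19 libraries, and the kainate libraries alone gave 4 calls over all genes.

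Of 19 measured transcription factors of the activation and lysosomal programmes, 13 rose in EZH2nHom and 7 in WT, and 0 fell, with medians of 0.75 and 0.55, beside the same 14.3% and 9.47% of all genes. Bhlhe41, a factor of microglia and macrophages, rose by 0.87 ± 0.13 and 0.55 ± 0.13. Jun, a subunit of AP-1, was at 0.18 ± 0.10 and 0.06 ± 0.10, Hif1a at 0.28 ± 0.14 and 0.33 ± 0.14 and Bhlhe40 at -0.11 ± 0.17 and -0.21 ± 0.16, none of them called. Jun was higher in EZH2nHom than in WT after kainate (0.42 ± 0.10, adjusted p = 0.0194) and after saline (0.30, adjusted p = 0.0478). Jun averaged 48.4 ± 5.73 and 42.6 ± 4.00 CPM (SD) in EZH2nHom kainate and saline libraries, against 36.1 ± 2.17 and 34.6 ± 4.90 CPM in WT kainate and saline libraries. Hif1a was higher in EZH2nHom after saline (0.48, adjusted p = 0.0239). The other factors of the 19 were not called between the genotypes, beside 7.61% of all genes called after kainate and 13.5% after saline. The call of Jun after kainate comes from the fit to all 19 libraries, and the kainate libraries alone gave 4 calls over all genes.

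Among 35 other disease-associated microglia genes, 25 rose and 1 (Cd36) fell in EZH2nHom, and 23 rose and 0 fell in WT, with medians of 1.42 and 1.21, beside 14.3% and 9.47% of all genes called higher. Ctsd, a lysosomal protease, rose by 2.57 ± 0.35 in EZH2nHom and 2.17 ± 0.34 in WT, and Ctsb by 1.33 ± 0.21 and 1.21 ± 0.20. Apoe, the lipid carrier, rose by 0.58 ± 0.17 in EZH2nHom and was at 0.45 ± 0.16 in WT (adjusted p = 0.0885), and Fth1, the ferritin heavy chain, rose by 0.72 ± 0.14 and was at 0.36 ± 0.13 (adjusted p = 0.0815). Astrocytes also express Apoe, and other brain cells express Fth1 and Ctsb. Between the genotypes after kainate B2m (1.16) and Fabp5 (0.37) were higher and Ank (-0.27) lower in EZH2nHom, and after saline Hif1a was higher, all 4 named after their values were seen. These were the only calls among the 35 genes, beside 7.61% of all genes called between the genotypes after kainate and 13.5% after saline. Fitted to the kainate libraries alone, 4 of all genes were called higher in EZH2nHom and 0 lower, so the lower call of Ank was not kept. The lists overlap, since Csf1, Lgals3bp, Hif1a, Mertk, Sall1, Spi1 and Irf8 each stand in 2 of them. Mertk and Sall1 are among the 15 homeostatic genes used for scaling, and Spi1 and Irf8 among the 14 general microglia genes.

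Among 13649 genes compared, those whose log2(CPM + 1) followed the mean of the 10 genes most closely over the 9 kainate libraries were Ctsz (r = 0.994), Rrbp1 (0.993), Lcp1 (0.992), Lcp2 (0.990) and Anxa3 (0.990). Ctsz, a lysosomal carboxypeptidase, averaged 167 ± 51.7 CPM in EZH2nHom kainate and 27.0 ± 6.03 CPM in EZH2nHom saline libraries, and 109 ± 80.1 CPM in WT kainate and 25.0 ± 3.37 CPM in WT saline libraries. Lcp1 and Lcp2, proteins of leukocyte actin bundling and immunoreceptor signalling, averaged 54.3 ± 16.7 and 13.9 ± 4.18 CPM in EZH2nHom kainate libraries, against 43.8 ± 32.8 and 10.4 ± 8.35 CPM in WT kainate libraries. Rrbp1, a ribosome-binding protein of the endoplasmic reticulum, averaged 83.7 ± 11.2 and 68.3 ± 28.0 CPM in the same groups, and Anxa3, an annexin, 30.4 ± 7.92 and 21.2 ± 14.7 CPM.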

How the data were processed

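Gene counts (whole reads per Ensembl gene, not normalized) were deposited by the authors for 19 libraries and 55416 genes, of which 32474 had a read. The authors' second table holds normalised signal values, log2 fold changes with their errors, test scores and p-values for 32427 genes, per the file headers. That signal, log2, score and p-value table gave gene symbols here and no result. The build mm39 and the tools DESeq and DESeq2 are named in the submitters' processing notes; the aligner and counter are not given in the sources used here. Columns were matched to samples by title.

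Counts were fitted with edgeR 4.0.16 in R 4.3.3 (filterByExpr by group, TMM scaling, robust quasi-likelihood, 1 mean per group, all 19 libraries). Benjamini-Hochberg adjustment ran over 19234 genes, with calls at an adjusted p under 0.05. SE is the absolute log2 fold change over the square root of F. For values relative to homeostatic genes, libraries were scaled to the mean log2 CPM of 15 genes. Library totals of 24496685 to 43948317 reads set the precision. Alternatives included DESeq2 1.42.0, no filter, only the groups compared, a replicate block, and covariates for structural RNA and Y-linked reads. The tests were checked on simulated data.

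The members and lists were chosen with earlier results of these data known. From each list other than the 10 genes and their binding partners, the 4 genes with the highest mean CPM were named, except that 1 is not reported here. Other genes of the lists and markers, such as Ccr2, Ly6c2, Plac8, Ms4a7 and Cd36, were named after their values were seen.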

Additional observations from a re-analysis of the deposited data

Results flagged for a closer look

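The CPM of the 10 genes were screened in 4 groups each, 40 sets in all, for a library far from the others of its group by Dixon's test at the 95% level, which chance passes in about 1 of 20 sets. Of the 40 sets, 2 passed. Gpnmb was at 67.5 CPM in EZH2nHom kainate replicate 4, against 39.9 to 41.7 CPM in the other 3 libraries of the group. Axl was at 46.0 CPM in WT saline replicate 5, against 43.1 to 43.9 CPM in the other 4 libraries.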

How the results depend on the processing

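Of the fitted changes of single members under alternatives other than leaving out a single library, 525 kept direction and side of the threshold and 19 reversed. With direction kept, 6 gained and 19 lost a call. With single libraries left out 809 kept both, 33 reversed, and 7 gained and 1 lost a call with direction kept. A reversed change was counted only as reversed, also where its call was lost or gained. The 19 lost calls include those of every member in the fit to the 6 WT libraries with a shared code prefix. The cause of these shifts was not tested.

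In WT after kainate, 0 members and 0 of all genes were called among the 6 libraries with a shared code prefix (prefix as block; 7 members and 2167 genes at an unadjusted p under 0.05). A covariate for structural RNA left 7 members, beside 2.92% of all genes, without Spp1 (adjusted p = 0.0732), Axl (0.195) and Lgals3 (0.155). The replicate block left 9 in WT, without Spp1 (3.35, adjusted p = 0.126), and 10 in EZH2nHom. Relative to homeostatic genes in WT, the block ended the call of Spp1 (2.22) and gave one of Lgals3 (1.04). Same-numbered WT kainate and saline libraries had correlated deviations of 0.0746 to 0.302, and EZH2nHom ones -0.0515 to 0.0856, so the numbers were not taken as pairs; in WT all 5 kainate libraries matched their own number best. Under the block 735 genes were called between genotypes after kainate.

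With the index from general microglia genes, reversals were Trem2 in WT (-0.053), Trem2 (-0.16), Tyrobp (-0.053), Axl (-1.34) and Cd68 (-0.084) in EZH2nHom, and Itgax (-0.19), Trem2 (-0.24), Tyrobp (-0.33) and Axl (-0.12) between genotypes after kainate. With the structural RNA covariate they were Cst7 (-0.65), Gpnmb (-0.91) and Cd68 (-0.051) after saline and Itgax (-0.29), Trem2 (-0.015) and Tyrobp (-0.053) after kainate. After saline the block reversed Spp1 (-0.026), and the Y-linked covariate Spp1 (-0.95), Gpnmb (-0.32) and Lgals3 (-0.34). In the fit to the saline groups alone 4 members were called and Cst7 had no value.

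Leaving out single libraries, the relative change of Axl in EZH2nHom ran from -0.069 to 0.42. After saline, genotype differences ran from -0.28 to 0.88 (Cst7), -0.47 to 0.030 (Itgax), -0.15 to 0.20 (Spp1), -0.17 to 0.13 (Gpnmb) and -0.074 to 0.44 (Lgals3). After kainate, 0 to 4 members were called, and differences ran from -0.054 to 0.65 (Itgax), -0.056 to 0.65 (Trem2), -0.14 to 0.48 (Tyrobp) and -0.49 to 1.91 (Spp1); relative to homeostatic genes 0 to 1 were called, and Spp1 ran from -0.31 to 2.86. The difference of responses ran from -0.075 to 1.09 (Cst7), -0.51 to 1.89 (Spp1) and -0.18 to 0.64 (Cd68).

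Counts over all genes moved by more than 1.5 times under the following alternatives. The 2316 calls in WT became 562 with the structural RNA covariate and 1083 at an adjusted p under 0.01, and the 5012 in EZH2nHom became 3066 in the fit to those groups alone and 2815 at 0.01. After saline 2596 became 5604, 1691 and 1212 under those groups alone, the covariate and 0.01. After kainate 1463 became 959 without a filter, 4 in those groups alone, 284 at 0.01 and 2273 with DESeq2. For the difference of responses 0 became 1 under the block and 15 with DESeq2. Relative to homeostatic genes, 74 after saline became 345 (block) and 39 (0.01), 59 after kainate became 2666 (general index), 103 (block) and 21 (0.01), and the difference went to 1 (general index) and 17 (block). With 1 library left out at a time, counts ran from 1365 to 2675 in WT (1518, 1401 and 1365 without saline replicate 2, kainate replicate 3 and kainate replicate 4), from 1675 to 2385 between genotypes after saline, from 670 to 2193 after kainate (706, 670 and 947 without WT kainate replicates 1, 2 and 5), and from 0 to 4 for the difference of responses (4 without EZH2nHom kainate replicate 2, and 1 without WT saline replicate 1 or EZH2nHom saline replicate 5). Relative to homeostatic genes they ran from 44 to 64 after saline, from 24 to 616 after kainate (24 to 37 without WT kainate replicate 1, 2, 3 or 5, 128 without replicate 4, and 317, 197 and 616 without EZH2nHom kainate replicates 1, 3 and 4) and from 0 to 1 for the difference.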
